A study of Mus musculus with 4 samples.

Results

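Lair1 (ENSMUSG00000055541) was followed through the cells of mouse lung, as 1 of the 32285 genes counted in 4 single-cell libraries. It was taken as the row of the gene tables that carries its symbol, and its raw transcript counts were read in every cell type and macrophage state that could be marked by other genes. The 4 groups were LAIR1KO lungs bearing B16/F10 tumors, WT lungs bearing B16/F10 tumors, LAIR1KO lungs without tumor and WT lungs without tumor. B16/F10 is a mouse melanoma cell line. Each group was 1 library of cells from 3 animals told apart by antibody hashtags, so the library and the group cannot be told apart, and nothing in the labels says whether the 3 animals of a group were handled separately before pooling. The strain, the age of the animals, the part of Lair1 removed in LAIR1KO and the route of the tumor cells are not given in the sources used here.

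LAIR1 is an inhibitory receptor of leukocytes with an immunoglobulin-like domain that binds collagens and proteins with collagen-like tails, such as the complement component C1q, surfactant protein D and collectin-12. On binding, tyrosines of its cytoplasmic inhibitory motifs (ITIMs) are phosphorylated by Src family kinases and recruit the phosphatases SHP-1 and SHP-2, encoded by Ptpn6 and Ptpn11. Lung is rich in collagen, and its interstitial macrophages, which lie in the tissue between airspaces and vessels, sit within that matrix.

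The gene lies on the minus strand of chromosome 7 (mm10, 4003402 to 4063204), within the leukocyte receptor cluster. The annotation gives it 10 transcripts, 5 of them protein coding, with 3′ ends spread from 4003402 to 4027203. Its protein-coding neighbours are Gm14548 and Lilra6 at lower coordinates and Ttyh1 and Leng8 at higher coordinates. The 250 bases before its start (RefSeq, GRCm38.p6, chr7:4063205-4063454, minus strand) are shown because the levels of Lair1 parted myeloid from non-haematopoietic cells, and motifs of factors known from myeloid genes were looked for in them. Capitals mark the matches.

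Lair1 upstream window: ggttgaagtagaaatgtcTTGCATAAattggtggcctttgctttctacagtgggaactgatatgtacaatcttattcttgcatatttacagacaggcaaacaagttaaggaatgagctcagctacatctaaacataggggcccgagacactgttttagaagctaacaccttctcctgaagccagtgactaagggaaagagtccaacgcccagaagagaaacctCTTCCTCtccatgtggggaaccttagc

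On either strand, the window held 1 match to the C/EBP motif TTGCNNAA, whose first letter lies 232 bases before the start. It also held 1 match to the PU.1 core GAGGAAG, on the opposite strand and 27 bases before the start. Neither overlaps the other. Among 32851 windows of the same length, 9.56% held the first motif and 10.6% the second. The RUNX core TGTGGT had 0 matches in the window and was in 14.05% of all windows. These are matches of letters only.

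The libraries held 4727 barcodes in LAIR1KO tumor-bearing lung, 4442 in WT tumor-bearing lung, 3886 in LAIR1KO normal lung and 3295 in WT normal lung, with 25216301 to 28034709 transcript molecules (unique molecular identifiers, UMIs) of genes in each. After filters, 8468 cells were assigned to 1 of the 12 animals, and 7847 of them (92.7%) were given a cell type by markers that leave out Lair1. A name ending in "-like" stands for cells with those markers. Between 3 and 7 barcodes were shared by any pair of libraries. The WT normal animals differed in sex from the rest by their transcripts: the Y-linked helicase Ddx3y had 190 CPM (UMIs of a gene per 1000000 gene UMIs of the same cells) in WT normal lung and at most 0.319 CPM in the others, and Xist, the RNA of the inactive X chromosome, had 1124 to 1297 CPM in the other 3 libraries. Every comparison with WT normal lung therefore also compares female with male animals, and these cannot be told apart.

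Lair1 was detected almost only in WT libraries. Over all barcodes it had 3 UMIs in LAIR1KO tumor-bearing lung, against 1349 in WT tumor-bearing lung, and 6 UMIs in the LAIR1KO library without tumor, against 660 in that of WT. By animal, among cells assigned to one, LAIR1KO tumor-bearing lungs held 0, 1 and 2 Lair1 UMIs, against 205, 257 and 268 in WT tumor-bearing lungs. LAIR1KO normal lungs held 0, 1 and 0, against 125, 72 and 105 in WT normal lungs. The genotypes did not overlap in any animal, and the labels of all 4 libraries fit the gene they name.

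Interstitial macrophage-like cells, defined here by markers such as the C1q genes, Ms4a7, Apoe and Aif1, held most of the Lair1 UMIs. They gave 76.8% of the Lair1 UMIs of WT tumor-bearing lung from 19.6% of its assigned cells, and 73.5% in WT normal lung from 13.3% of the cells. In LAIR1KO tumor-bearing lungs the 3 animals had 0, 0 and 0.599 CPM, which is 1 UMI in 515 cells, against 222, 226 and 181 CPM in WT tumor-bearing lungs. In LAIR1KO normal lungs no UMI was seen in 202 cells, against 127, 115 and 138 CPM in WT normal lungs. All animals of one genotype lay apart from all of the other.

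The genotype difference in these cells was tested with edgeR's quasi-likelihood test on UMIs summed per animal, with Benjamini-Hochberg adjustment. In tumor-bearing lung Lair1 fell by 8.70 ± 0.35 on the log2 scale (SE, 3 animals each, adjusted p = 4.04e-11). It was the 1 gene called of 7259 tested, or 0.0138%, while 459 genes had an unadjusted p under 0.05. In normal lung it fell by 9.53 ± 0.61 (adjusted p = 5.15e-08), among 35 genes called, or 0.482%. Since fitted values of genes at 0 depend on the prior count, the raw UMIs give the plainer measure. The WT level over the LAIR1KO level was 635 in tumor-bearing lung, with a 95% counting interval from 113 to 25120. In normal lung the LAIR1KO level was at least 50.0-fold lower, with a floor of 3 UMIs over the group set against the observed WT level.

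The tumor-bearing WT animals had more Lair1 per UMI in interstitial macrophage-like cells than the normal WT animals, by a margin just outside the test's threshold. The 3 tumor-bearing animals lay between 181 and 226 CPM and the 3 normal animals between 115 and 138 CPM, with no overlap. The log2 difference was 0.70 ± 0.15 (edgeR, Benjamini-Hochberg adjusted p = 0.0565), in a comparison where 25 of 7259 genes (0.344%) were called. It passed the threshold under 3 of 8 other settings. Of the 6 fits without an animal, 1 passed, that without the third WT normal animal (0.78, adjusted p = 0.0410), and 5 did not (adjusted p up to 0.213). The difference compares female with male animals and 1 library with another. The test of whether the genotype difference itself differed between tumor-bearing and normal lung gave 0.83 ± 1.09 (adjusted p = 0.911, 0.703% of genes called), a value that 1 UMI in LAIR1KO decides: without the LAIR1KO tumor-bearing animal that held it, the value was -0.71.

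**Figure D1:**
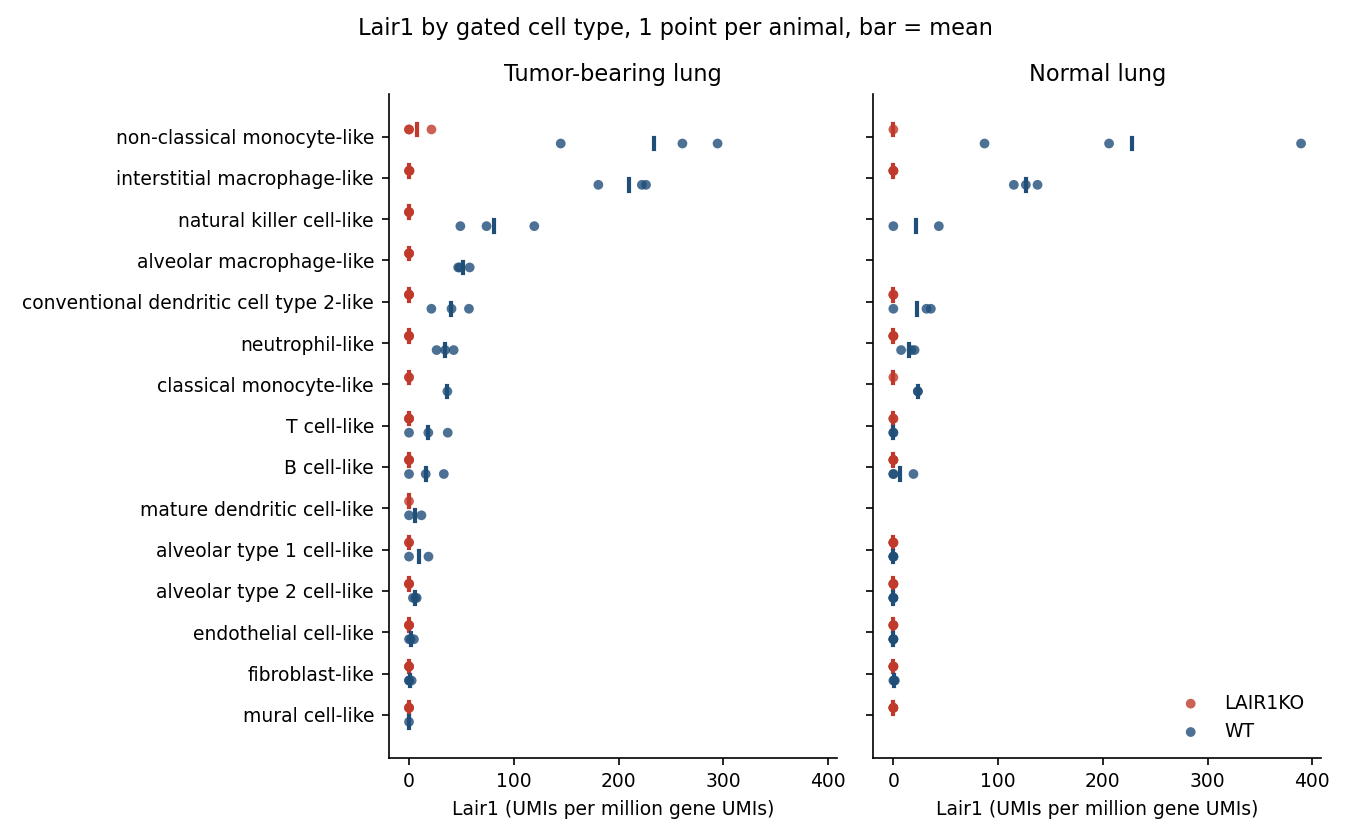
Lair1 level (CPM, horizontal axis) in each marker-gated cell type, in tumor-bearing lung left and normal lung right; each point is an animal with at least 5 cells of the type, LAIR1KO above WT, and bars are means over animals. WT non-classical monocyte-like cells at 87.0 to 389 CPM and WT interstitial macrophage-like cells at 115 to 226 CPM stand to the right of most other types, and LAIR1KO cells lie at or near 0.

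Across the cell types of WT lung, monocytes of the non-classical kind and interstitial macrophages stood at the top. Non-classical monocytes patrol the walls of small vessels. Their -like cells, marked by Ace, Treml4 and Cd300e among others, had 255 CPM in tumor-bearing lung (28 UMIs, 28 cells, exact 95% Poisson interval 169 to 368) and 216 CPM in normal lung (18 cells, 140 to 318). By animal they had 145, 295 and 261 CPM in tumor-bearing lung, from 6, 13 and 9 cells, and 87.0, 206 and 389 CPM in normal lung, from 7, 5 and 6 cells. The animals of the 2 conditions overlapped widely.

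Interstitial macrophage-like cells followed with 206 CPM in tumor-bearing lung (189 to 224, 449 cells) and 127 CPM in normal lung (111 to 145, 235 cells). Their interval overlapped that of the non-classical monocyte-like cells in both libraries. The test between them, run with at least 5 cells per animal because the usual 10 left too few monocytes, gave a difference of -0.04 ± 0.24 for non-classical monocyte-like minus interstitial macrophage-like cells (log2, edgeR with the animal as a block, Benjamini-Hochberg adjusted p = 0.927, 28.9% of 8198 genes called). The monocytes were higher in 4 of 6 animals and in the summed levels of both libraries, unlike the sign of the fitted value. How the scaling of libraries moves this pair was not tested. The fitted difference was smaller than its standard error.

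All other types lay lower, and the gap below the interstitial macrophage-like cells was the only step between neighbours in the order at which the intervals parted, in both WT libraries. In tumor-bearing lung the order went on with natural killer cell-like cells at 75.6 CPM (27.7 to 164), alveolar macrophage-like cells at 51.0 CPM (36.4 to 69.4) and cDC2-like cells, conventional dendritic cells of type 2, at 38.1 CPM (21.3 to 62.9). Neutrophil-like cells had 34.3 CPM (22.2 to 50.7). Below them came classical monocyte-like cells at 29.5 CPM (2 UMIs in 13 cells), T cell-like cells at 18.4 CPM (2 UMIs) and B cell-like cells at 17.9 CPM (4 UMIs).

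In normal lung cDC2-like cells had 23.2 CPM (9.32 to 47.7), classical monocyte-like cells 20.3 CPM, natural killer cell-like cells 18.9 CPM and neutrophil-like cells 15.8 CPM (9.20 to 25.3). B cell-like cells had 6.76 CPM there, from 1 UMI, and T cell-like cells had none. Alveolar macrophage-like cells could be assigned in tumor-bearing lung alone in number, with 90 WT cells there and 2 in WT normal lung. These low levels have wide intervals, and neighbours in the order cannot be told apart at this depth.

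Mature dendritic cell-like cells of tumor-bearing lung had 1 UMI. Cells outside the blood lineage give the background. In tumor-bearing lung alveolar type 1 cell-like cells had 1 UMI. Alveolar type 2 cell-like cells had 5.38 CPM, endothelial cell-like cells 1.91 CPM, fibroblast-like cells 1.02 CPM and mural cell-like cells 0. In normal lung fibroblast-like cells had 0.885 CPM and alveolar type 2, alveolar type 1 and endothelial cell-like cells 0. Plasmacytoid dendritic cell-like cells were too few for a level: 1 assigned cell of WT normal lung held 3 Lair1 UMIs, and 1 cell of WT tumor-bearing lung with more than 1 hashtag held 4.

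Each type with enough cells was set against interstitial macrophage-like cells of the same WT animals, tumor-bearing and normal together (edgeR, animal as a block, 10181 genes, Benjamini-Hochberg adjustment). Alveolar macrophage-like, T cell-like and natural killer cell-like cells reached 10 cells in tumor-bearing animals alone. The values of natural killer cell-like cells rest on 5 Lair1 UMIs and those of T cell-like cells on 2. All 10 types tested were lower in every animal that had both. Among myeloid cells, neutrophil-like cells were lower by a log2 difference of -2.24 ± 0.23 (6 of 6 animals, adjusted p = 8.68e-13, in a comparison that called 63.2% of genes). Alveolar macrophage-like cells, the phagocytes of the airspace, differed by -2.33 ± 0.26 (3 of 3 animals, 29.4% of genes called). For cDC2-like cells the difference was -2.45 ± 0.30 (5 of 5 animals, 17.5% called).

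Among lymphoid cells, natural killer cell-like cells differed by -2.32 ± 0.55 (2 of 2 animals, adjusted p = 0.00165, 13.8% of genes called), and this call was lost when the libraries were scaled by their totals alone (-1.48, adjusted p = 0.127). B cell-like cells differed by -4.21 ± 0.42 (31.3% called) and T cell-like cells by -4.36 ± 0.62 (23.2% called). The fitted difference was -5.84 ± 0.27 for alveolar type 2 cell-like cells (58.5% called), -7.08 ± 0.28 for fibroblast-like cells (58.5% called) and -7.44 ± 0.36 for endothelial cell-like cells (53.5% called). Alveolar type 1 cell-like cells of the animals tested had no UMI (33.9% called). The scaling shifts these values: against totals alone it moved natural killer cell-like cells by -0.85, T cell-like cells by -0.79, B cell-like cells by -0.50 and neutrophil-like cells by 0.54 on the log2 scale, without turning any direction. Non-classical monocyte-like cells were not in this comparison of scalings.

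With at least 5 cells per animal, classical monocyte-like cells, the circulating precursors of many tissue macrophages, also entered. They were lower than interstitial macrophage-like cells by a log2 difference of -3.04 ± 0.62 (edgeR, Benjamini-Hochberg adjusted p = 0.000153, 15.5% of genes called). Mature dendritic cell-like cells differed by -4.66 ± 0.81 (15.8% called). Both types rest on few cells.

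Lair1 was at or near 0 in LAIR1KO cells of these other types as well, as far as depth allows. In LAIR1KO tumor-bearing lung alveolar macrophage-like cells held 0 UMIs in 29, 29 and 48 cells, against 57.9, 46.9 and 48.3 CPM in the WT tumor-bearing animals. That difference passed the test (edgeR, adjusted p = 0.00442, 2 of 4010 genes or 0.0499% called), and the LAIR1KO level was at least 16.3-fold lower. Neutrophil-like cells of LAIR1KO held 0 UMIs in 525 cells of tumor-bearing and 513 of normal lung, at least 9.89-fold and 5.18-fold lower than in WT.

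For rarer types the bounds were lower. With the WT level taken as observed, they were 3.78-fold for natural killer cell-like cells of tumor-bearing lung (6 WT UMIs). They were 3.03-fold and 1.35-fold for cDC2-like cells of tumor-bearing and normal lung (15 and 7 WT UMIs). For alveolar type 2 cell-like cells of tumor-bearing lung the bound was 1.96-fold (11 WT UMIs). In non-classical monocyte-like cells the WT level over the LAIR1KO level was 43.5 in tumor-bearing lung, with a counting interval from 7.19 to 1778. In normal lung the LAIR1KO level of these cells was at least 4.15-fold lower. Intervals cover counting error only. Every bound, here and above, sets the observed WT level against a floor of 3 UMIs in LAIR1KO and leaves out counting error in WT. The WT interval reached down to 9.32 CPM in cDC2-like cells of normal lung and 2.68 CPM in alveolar type 2 cell-like cells of tumor-bearing lung. The 1.35-fold and 1.96-fold values therefore do not establish a reduction.

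Neutrophil-like cells also had more Lair1 per UMI in tumor-bearing than in normal WT lung. The tumor-bearing animals had 26.3, 34.6 and 42.6 CPM, from only 6, 10 and 9 UMIs. The normal animals had 7.40, 20.3 and 17.3 CPM, from 2, 7 and 8 UMIs, and the conditions did not overlap. Lair1 was under the filter on low counts in the edgeR fit of this type, where 66 of 3175 genes (2.08%) were called. An exact two-sided permutation test over animals gave p = 0.1, the smallest that 3 against 3 animals allow. Sex and library move with this comparison as well.

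**Figure D2:**
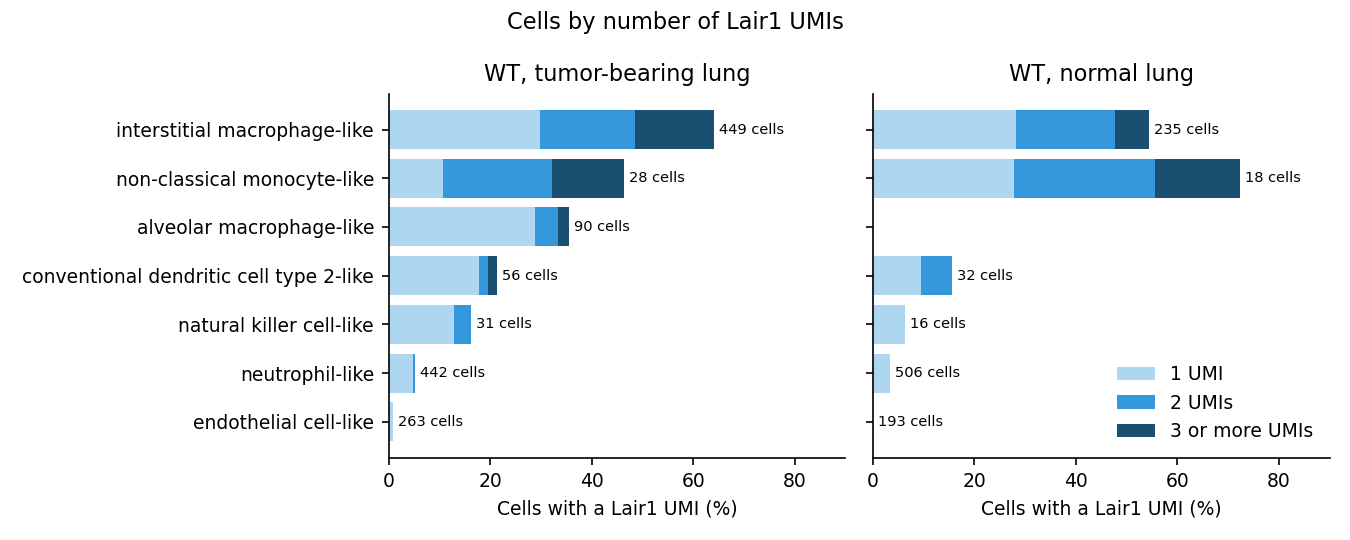
Share of WT cells with 1, 2 or at least 3 Lair1 UMIs by cell type, tumor-bearing lung left and normal lung right. Interstitial macrophage-like cells with a UMI made up 64.1% in tumor-bearing and 54.5% in normal lung, while endothelial cell-like cells lay under 1%.

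Per cell, Lair1 was seen at 1 or a few UMIs. A Lair1 UMI was present in 64.1% of interstitial macrophage-like cells of WT tumor-bearing lung (exact 95% interval 59.5 to 68.6%, median depth 5373 UMIs) and in 54.5% of those of WT normal lung (47.9 to 61.0%, 6824 UMIs). In tumor-bearing lung 134 cells held 1 UMI, 84 held 2 and 70 held at least 3, and in normal lung the numbers were 66, 46 and 16. The cells with at least 2 UMIs were thus more than those with 1 in tumor-bearing lung and about as many in normal lung.

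The background in endothelial cell-like cells was 0.760% in tumor-bearing lung (median 3086 UMIs) and 0% in normal lung (5455 UMIs). In WT tumor-bearing lung the share of cells with a UMI was 46.4% for non-classical monocyte-like, 35.6% for alveolar macrophage-like, 21.4% for cDC2-like, 16.1% for natural killer cell-like and 5.20% for neutrophil-like cells. In WT normal lung it was 72.2% for non-classical monocyte-like, 15.6% for cDC2-like, 6.25% for natural killer cell-like and 3.36% for neutrophil-like cells. The neutrophil-like cells, though shallow (median 1532 UMIs in tumor-bearing lung), lay above the endothelial background.

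Depth differs between these types, so cells were also thinned to 2000 UMIs. Thinned, interstitial macrophage-like cells with a Lair1 UMI made up 35.8% in tumor-bearing and 23.7% in normal lung. In tumor-bearing lung non-classical monocyte-like cells with a UMI made up 30.4%, alveolar macrophage-like cells 12.5%, natural killer cell-like cells 10.5%, cDC2-like cells 7.41% and neutrophil-like cells 4.84%, where 380 neutrophil-like cells were too shallow to keep. In normal lung non-classical monocyte-like cells made up 38.9%, cDC2-like cells 9.38%, natural killer cell-like cells 7.69% and neutrophil-like cells 2.14%, with 272 neutrophil-like cells left out. The 2 types at the top kept their place above the rest.

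**Figure D3:**
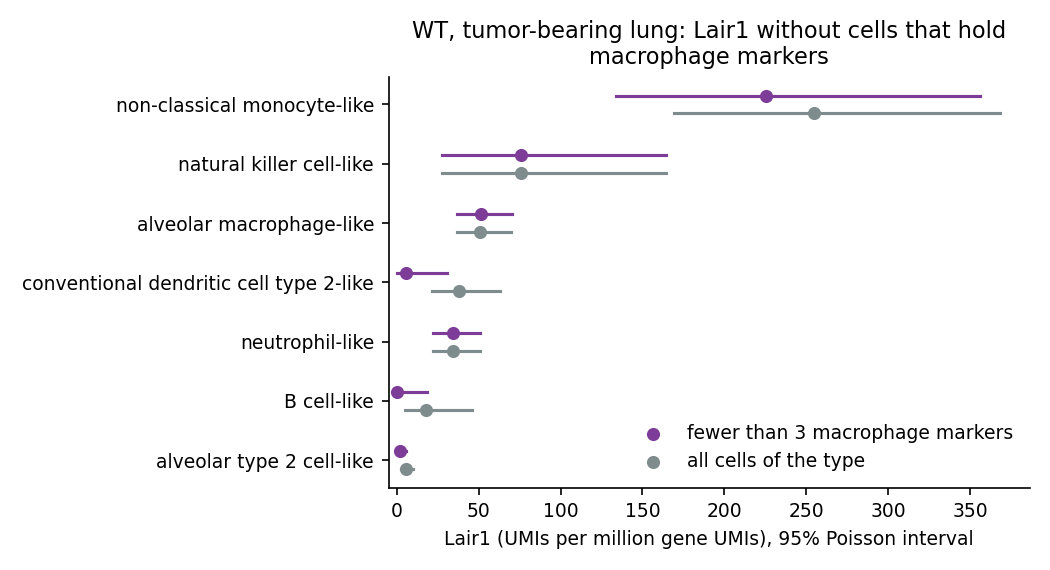
Lair1 level by cell type in WT tumor-bearing lung, in CPM with exact 95% Poisson intervals, without the cells that carry 3 or more of the 7 interstitial macrophage markers (upper of each pair) and with all cells (lower). The level of cDC2-like cells was 5.54 CPM without and 38.1 CPM with those cells. That of neutrophil-like cells was 34.3 CPM in both, since none of them was left out.

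In some types the cells with a Lair1 UMI were those that also carried interstitial macrophage genes. Of the 7 macrophage markers, cDC2-like cells of WT tumor-bearing lung with a Lair1 UMI held a median of 6.5 (12 cells), against 2 in cDC2-like cells without one (44 cells). C1q transcripts stood at 83.2 UMIs per 10000 in the cells with a Lair1 UMI and at 14.1 in those without. In normal lung the medians were 7 (5 cells) and 2 (27 cells). The 2 B cell-like cells of tumor-bearing lung with a UMI held 7 markers, against a median of 1 in the others, and the 9 alveolar type 2 cell-like cells with a UMI held a median of 6, against 1. Detection of markers also depends on depth. In tumor-bearing lung the median depth with and without a Lair1 UMI was 7855 and 1927 UMIs in B cell-like cells. It was 11189 and 8729 UMIs in alveolar type 2 cell-like cells, but 5496 and 6912 UMIs in cDC2-like cells.

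Neutrophil-like cells of WT tumor-bearing lung had a median of 0 macrophage markers with a Lair1 UMI (23 cells) and 0 without one. The same held for natural killer cell-like cells (5 cells with a UMI) and T cell-like cells (2 cells). Alveolar macrophage-like cells had a median of 1 in either case (32 cells with a UMI), and non-classical monocyte-like cells 2 with and 1 without, where 4 of 13 cells with a UMI and 1 of 15 without held 3 or more markers. In WT normal lung the 2 classical monocyte-like cells with a UMI held a median of 3.5 markers, against 2 in the 13 without, and no C1q UMI. Their median depth was 10549 UMIs, against 6226. In WT tumor-bearing lung the 2 classical monocyte-like cells with a UMI held a median of 1.5 markers, against 2 in the 11 without. Non-classical monocyte-like cells of tumor-bearing lung had a median depth of 4731 UMIs with a Lair1 UMI and 2837 without.

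Leaving out every cell of another type with 3 or more of the 7 markers, a step chosen after the values were seen, lowered cDC2-like cells to 5.54 CPM in WT tumor-bearing lung (24 cells kept, 32 left out) and to 0 in WT normal lung (14 kept, 18 left out). B cell-like cells went to 0 in both, classical monocyte-like cells of normal lung to 0 (8 kept, 7 left out), against 20.3 CPM with all cells, and alveolar type 2 cell-like cells of tumor-bearing lung to 2.14 CPM. Classical monocyte-like cells of tumor-bearing lung had 48.2 CPM without such cells (9 kept, 4 left out) and 29.5 CPM with all. In tumor-bearing lung non-classical monocyte-like cells had 225 CPM without such cells (18 UMIs, 23 cells) and 255 CPM with all (28 UMIs, 28 cells). In normal lung they had 213 CPM without and 216 CPM with all. The level was 75.6 CPM in natural killer cell-like, 51.3 CPM in alveolar macrophage-like and 34.3 CPM in neutrophil-like cells of tumor-bearing lung, within 1 CPM of that with all cells. The step left out 0 natural killer cell-like, 0 neutrophil-like and 2 alveolar macrophage-like cells, so it could hardly change these levels. Whether cells with markers of both kinds are doublets, cells with taken-up RNA or cells of mixed identity was not tested. The cDC2-like cells had no cluster of their own when cells were grouped without Lair1, so their level in these lungs rests on the marker gate.

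Interstitial macrophage-like cells were parted into states by markers that leave out Lair1: Lyve1 and Folr2 high cells, which are known to lie along vessels, MHC class II high cells, which present antigen, Ccl3 and Ccl4 high cells, which make inflammatory chemokines, and cycling cells. In WT tumor-bearing lung 126 of 449 cells were given no state, with 212, 241 and 183 CPM by animal. In WT normal lung these were 55 of 235 cells, with 142, 104 and 108 CPM, the middle value from 7 cells. All states carried Lair1. In WT tumor-bearing lung the MHC class II high cells had 250, 271 and 202 CPM, the Lyve1 and Folr2 high cells 281, 215 and 214 CPM, and the Ccl3 and Ccl4 high cells 169, 139 and 141 CPM. The first 2 states overlapped with each other and lay above the third in every animal. Cycling cells had 172, 242 and 155 CPM, from 3, 5 and 13 cells.

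In WT normal lung the MHC class II high cells had 185, 91.7 and 185 CPM, the middle value from only 6 cells. The Lyve1 and Folr2 high cells had 101, 105 and 99.5 CPM and the Ccl3 and Ccl4 high cells 88.1, 120 and 150 CPM. Here the last 2 states overlapped. Cycling cells were 8 in all, with 20 Lair1 UMIs.

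**Figure D4:**
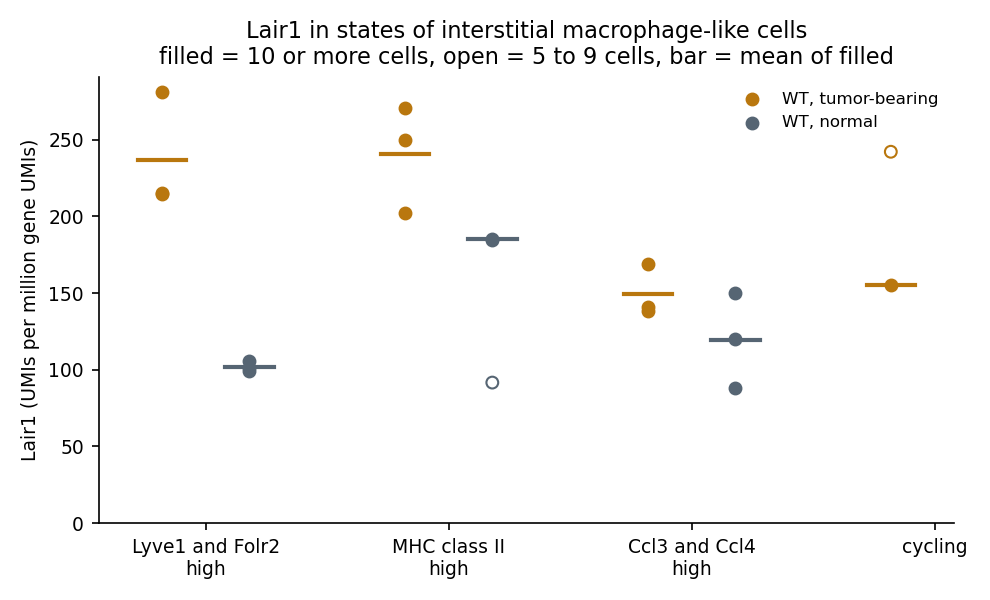
Lair1 level in each state of interstitial macrophage-like cells by WT animal, in CPM, tumor-bearing left of normal lung; filled points are animals with 10 or more cells, open points 5 to 9, bars the mean of filled points. Lyve1 and Folr2 high cells lie at 214 to 281 CPM in tumor-bearing and at 99.5 to 105 CPM in normal lung.

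No difference between states passed the test over both conditions (edgeR, animal as a block, 3110 genes, Benjamini-Hochberg adjustment). MHC class II high minus Ccl3 and Ccl4 high cells came nearest, with a log2 difference of 0.56 ± 0.20, higher in 5 of 5 animals (adjusted p = 0.0823, 10.8% of genes called). The WT normal animal left out for its 6 MHC class II high cells went the other way, with 91.7 against 120 CPM. MHC class II high minus Lyve1 and Folr2 high cells gave 0.41 ± 0.19 (adjusted p = 0.189, 15.4% called). Lyve1 and Folr2 high minus Ccl3 and Ccl4 high cells gave 0.16 ± 0.19 (adjusted p = 0.568, 29.4% called), and in normal lung alone the sign turned, to -0.34 (adjusted p = 0.444).

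Within states, tumor-bearing and normal WT lung differed for the Lyve1 and Folr2 high cells, in a test added after the levels were seen. Tumor-bearing animals averaged 237 ± 38.3 CPM and normal animals 102 ± 3.14 CPM (SD, n = 3 each), and they did not overlap. Lair1 rose by 1.19 ± 0.23 on the log2 scale (edgeR, Benjamini-Hochberg adjusted p = 0.0361, 23 of 4101 genes or 0.561% called). At a depth of 2000 UMIs, 35.1% of these cells held a Lair1 UMI in tumor-bearing and 15.3% in normal lung.

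The other states did not pass. The log2 difference was 0.38 ± 0.30 in MHC class II high cells (adjusted p = 0.805, 0.0538% of genes called) and 0.29 ± 0.30 in Ccl3 and Ccl4 high cells (adjusted p = 0.936, 0.129% called). The states were not shown to differ in this: the tumor difference of Lyve1 and Folr2 high cells minus that of Ccl3 and Ccl4 high cells was 0.88 ± 0.35 (edgeR, unadjusted p = 0.0231, adjusted p = 0.890). Against MHC class II high cells it was 0.79 ± 0.37 (unadjusted p = 0.0481, adjusted p = 0.809). As before, sex and library move with tumor here.

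The few Lair1 UMIs of LAIR1KO libraries lay in 8 barcodes, 9 UMIs in all. In LAIR1KO tumor-bearing lung they were 1 plasmacytoid dendritic cell-like, 1 non-classical monocyte-like and 1 interstitial macrophage-like cell with 1 UMI each, all with a single hashtag. In LAIR1KO normal lung 4 of the 5 barcodes had more than 1 hashtag: 2 endothelial cell-like cells, 1 neutrophil-like cell and 1 interstitial macrophage-like cell that held 2 UMIs. The fifth was a cell without a type. None of the 8 barcodes was also found in a WT library, and which part of the gene these UMIs came from cannot be read from counts.

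**Figure D5:**
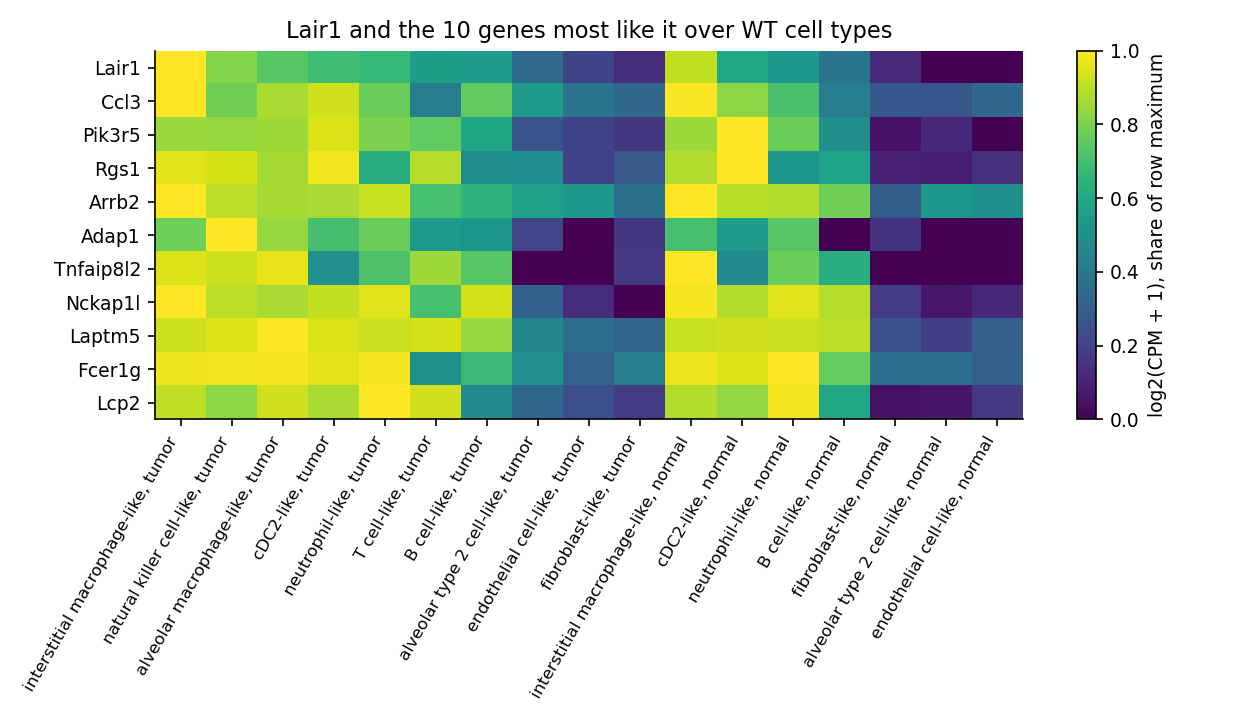
Lair1 and the 10 genes most like it over WT cell types, among the genes compared. Values are log2(CPM + 1) shown as a share of each row's maximum, over 17 combinations of cell type and WT library. Non-classical monocyte-like cells were too few to be among these. Rows are genes, columns are cell types of tumor-bearing and then of normal lung, each ordered by Lair1, and the dark cells at the right of each block are the low levels in fibroblast-like, endothelial cell-like and alveolar type 2 cell-like cells.

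Among the genes compared, the 10 with a level most like that of Lair1 over cell types were Ccl3, Pik3r5, Rgs1, Arrb2, Adap1, Tnfaip8l2, Nckap1l, Laptm5, Fcer1g and Lcp2. Likeness was Pearson's r of log2(CPM + 1) over 17 points, each a type with at least 30 cells in WT tumor-bearing or WT normal lung. It was taken among 10145 genes with at least 20 CPM in a point. Genes on the X and Y chromosomes, ribosomal protein and mitochondrial genes and predicted gene models had been passed over. Non-classical monocyte-like cells, which stood at the top for Lair1, had fewer than 30 cells in either library and gave no point. The points share 2 libraries and their depth, and Lair1 itself parts leukocytes from other cells over them, so r is a description and a leukocyte pattern is fixed by the choice. Ccl3, a chemokine of activated myeloid cells that also served as a marker of a macrophage state, came first with r = 0.93. It had 2674 CPM in interstitial macrophage-like cells of tumor-bearing lung and 13.6 CPM in endothelial cell-like cells of normal lung.

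Pik3r5, a regulatory subunit of phosphoinositide 3-kinase gamma, and Rgs1, which dampens signals of G protein-coupled receptors, both had r = 0.91. They were followed by Arrb2, a beta-arrestin, Adap1, a GTPase-activating protein of ARF proteins, Tnfaip8l2, an inhibitor of immune activation, and Nckap1l, the blood cell subunit of the WAVE actin complex, each with r = 0.90. Laptm5, a lysosomal membrane protein of leukocytes, Fcer1g, the common signalling chain of Fc receptors, and Lcp2, an adaptor below antigen receptors, had r = 0.89. By rank correlation 5 of the 10 stayed among the first 10, and 7 did so over the 10 points of tumor-bearing lung alone. Of the 10 genes, 7 had an upstream window of the same length, and the PU.1 core was in 1 of them, the RUNX core in 1 and the C/EBP motif in 0.

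The ligands of LAIR1 were highest in other cells of the same lungs, apart from C1q. Of the 14 ligand genes listed, 13 had UMIs, and 7 of these were highest in fibroblast-like cells in either WT library, where Col1a1, a chain of type I collagen, had 2226 CPM in tumor-bearing and 2038 CPM in normal lung. Colec12, a scavenger receptor with a collagen-like domain, had 527 CPM in tumor-bearing and 444 CPM in normal lung there. Col4a1, a chain of basement membrane collagen, was highest in endothelial cell-like cells (774 CPM in tumor-bearing and 531 CPM in normal lung), and Sftpd, surfactant protein D, in alveolar type 2 cell-like cells (2940 CPM in tumor-bearing and 2679 CPM in normal lung). C1qa, C1qb and C1qc were highest in interstitial macrophage-like cells, which they helped to define. Likewise Col1a2 and Col3a1, among the 7 genes highest in fibroblast-like cells, served as markers of that type, so their place was set by the gate.

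The genes that LAIR1 signals through had their own orders. Ptpn6, the phosphatase SHP-1, was highest in non-classical monocyte-like cells, with 373 CPM in WT tumor-bearing and 328 CPM in WT normal lung. In interstitial macrophage-like cells it averaged 126 ± 10.9 CPM in LAIR1KO and 164 ± 23.3 CPM in WT tumor-bearing lung (SD, n = 3 each), and 145 ± 31.2 CPM in LAIR1KO and 126 ± 9.78 CPM in WT normal lung. The genotype difference was -0.34 in tumor-bearing lung (log2, edgeR, Benjamini-Hochberg adjusted p = 0.782) and 0.24 in normal lung (adjusted p = 0.725).

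Across 4 lists around the receptor, interstitial macrophage-like cells showed no member past the threshold in either genotype comparison, in the tumor comparison of WT or in the interaction. The lists were 12 signalling partners (12 tested), 14 ligands (7 tested), 18 genes listed as other receptors with ITIMs (12 tested) and 10 activating partners of paired receptors (6 tested). The third list includes Lilr4b, whose product lacks ITIMs. In the genotype comparison of tumor-bearing lung 1, 1, 3 and 2 members had an unadjusted p under 0.05 by edgeR, beside 459 of all 7259 genes tested, and the median log2 differences were -0.02, 0.12, -0.01 and 0.09, beside -0.00 over all genes. In normal lung 5, 2, 3 and 3 members did, beside 765 of 7259 genes, with medians of 0.22, -0.43, 0.19 and 0.20, beside -0.01 over all genes.

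For tumor in WT the medians of the lists, in the same order, were 0.14, -0.08, 0.08 and 0.24, beside -0.00 over all genes. An unadjusted p under 0.05 was had by 3, 1, 2 and 1 members, beside 724 of 7259 genes. For the interaction the medians were -0.28, 0.27, -0.17 and -0.46, beside 0.01 over all genes, and 5, 3, 5 and 1 members had such a p, beside 762 of 7259 genes. Colec12 had the smallest adjusted p among the named members. It averaged 116 ± 12.3 CPM in LAIR1KO and 85.5 ± 11.9 CPM in WT tumor-bearing lung, and 86.6 ± 40.3 CPM in LAIR1KO and 136 ± 47.1 CPM in WT normal lung (SD, n = 3 each). Its interaction was 1.33 on the log2 scale (edgeR, Benjamini-Hochberg adjusted p = 0.0702).

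Among the partners with the highest levels, Grb2, an adaptor, Lyn and Syk, tyrosine kinases, and Inpp5d, the lipid phosphatase SHIP-1, lay between 166 and 229 CPM in the means of all 4 groups. In the list of other receptors with ITIMs, Lilrb4a averaged 643 ± 58.4 CPM in LAIR1KO and 687 ± 37.6 CPM in WT tumor-bearing lung. Lilr4b, which was listed there though its product lacks ITIMs, averaged 589 ± 87.0 CPM in LAIR1KO and 579 ± 12.5 CPM in WT. The 2 genes are near-identical copies, and their values are uncertain where counting splits their reads. Sirpa, the receptor of CD47, averaged 458 ± 19.8 CPM in LAIR1KO and 565 ± 50.0 CPM in WT tumor-bearing lung (log2 difference -0.27, adjusted p = 0.782), and Fcgr2b, the inhibitory Fc receptor of IgG, 415 ± 19.2 CPM in LAIR1KO and 320 ± 79.4 CPM in WT (0.41, adjusted p = 0.782).

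The activating chains were far more abundant. Fcer1g averaged 1736 ± 39.0 CPM in LAIR1KO and 1519 ± 31.8 CPM in WT tumor-bearing lung (adjusted p = 0.781), and Tyrobp, the adaptor DAP12, 1247 ± 73.2 CPM in LAIR1KO and 1109 ± 60.3 CPM in WT (adjusted p = 0.782). Trem2, a receptor that signals through it, had 165 ± 34.6 CPM in LAIR1KO and 174 ± 15.4 CPM in WT and, in normal lung, 239 ± 79.7 CPM in LAIR1KO and 144 ± 28.6 CPM in WT (log2 difference 0.61, adjusted p = 0.261). Cd300lb, an activating receptor of the CD300 family, had 39.3 ± 6.22 CPM in LAIR1KO and 59.2 ± 8.58 CPM in WT tumor-bearing lung (adjusted p = 0.663).

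Of the 4 neighbouring genes, Leng8 alone was high enough to be tested in interstitial macrophage-like cells. Its log2 genotype difference was 0.40 in tumor-bearing lung (edgeR, Benjamini-Hochberg adjusted p = 0.746) and 0.56 in normal lung (adjusted p = 0.251), and its tumor difference in WT was -0.30 (adjusted p = 0.638).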

How the data were processed

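Lungs were profiled with a 10x Genomics 3′ kit, version 3. The authors deposited whole-number counts of UMIs per gene and hashtag for each barcode, made with Cell Ranger 4.0.0 per the file headers, on mm10. STAR, R 4.0.0 and Seurat 3.2.0 are further named, like the build, per the submitters' processing notes. Cells with at least 300 genes and at most 10% mitochondrial UMIs were kept (15793 of 16350). HTODemux (Seurat 5.3.0, quantile 0.99) assigned 8468 to an animal and set aside 14.7 to 24.3% of cells per library with more than 1 hashtag and 23.0 to 33.0% with none. Scrublet marked 339 cells, which stayed in except in an alternative.

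A cell got a type when at least 3 of its markers were detected, with a score of at least 0.3 (mean of its standardised log values) and a gap of at least 0.15 to the next type. Of gated cells 93.9% lay in a Leiden cluster of the same name (34 clusters, scanpy 1.11.5, leidenalg 0.10.2, Python 3.11.15, built without Lair1). Classical monocytes, cDC2, conventional dendritic cells of type 1 and plasmacytoid dendritic cells had no cluster of their own. The same held for type 2 innate lymphoid, lymphatic endothelial, erythroid and melanoma cells and platelets. Sums of UMIs per animal and type, from 10 cells or more, went into edgeR 4.0.16 on R 4.3.3 (TMM, filterByExpr, quasi-likelihood), all groups sharing the spread. An adjusted p under 0.05 passed. Permutation and exact intervals used scipy 1.17.1. DESeq2 1.42.0 was an alternative. The tests were run on simulated data first. Lair1 was always named, with list members past the threshold or the 4 of highest mean, Ptpn6 added for its role, the 10 genes most like Lair1 and 2 neighbours on each side. The gene and the lists were chosen with earlier results of these data known.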

Additional observations from a re-analysis of the deposited data

Results flagged for a closer look

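Cells that the hashtags did not assign to 1 animal stood outside every comparison, and those of WT libraries carried Lair1 above the level of the LAIR1KO cells set aside in the same way. In tumor-bearing lung, cells with more than 1 hashtag had 0 Lair1 UMIs in LAIR1KO (672 cells), against 69.4 CPM in WT (427 UMIs, 769 cells). Cells with no hashtag had 0 in LAIR1KO (1514 cells), against 23.1 CPM in WT (190 UMIs, 1235 cells). In normal lung, cells with more than 1 hashtag had 0.526 CPM in LAIR1KO (5 UMIs, 926 cells), against 39.6 CPM in WT (256 UMIs, 596 cells), and cells with no hashtag 0 in LAIR1KO (879 cells), against 15.4 CPM in WT (97 UMIs, 734 cells). Interstitial macrophage-like cells gave 235 and 177 of the WT UMIs in tumor-bearing lung and 105 and 90 in normal lung.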

How the results depend on the processing

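The genotype differences of Lair1 in interstitial macrophage-like cells kept their direction and call under the 8 other settings each, and leaving out single animals gave -10.05 to -8.31 in tumor-bearing and -9.64 to -9.50 in normal lung (log2). The tumor difference in WT passed with library size alone (0.72, adjusted p = 0.0474), with no filter on low counts (0.74, adjusted p = 0.00278) and with Scrublet doublets removed (0.70, adjusted p = 0.0442). Leaving out single animals gave 0.65 to 0.82 (adjusted p from 0.0410 to 0.213). The interaction turned under DESeq2 (-1.22, adjusted p = 0.978), and leaving out single animals gave -0.71 to 1.18. Of the values by cell type, 82 kept their call and 1, natural killer cell-like cells with library size alone (-1.48), lost it. All 58 fits without an animal kept it. Of the values by state 20 kept their side and 1 turned (Lyve1 and Folr2 high minus Ccl3 and Ccl4 high, normal lung alone, -0.34). Dropping the animal as a block changed no call.

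Counts of called genes moved most. For genotype in tumor-bearing lung, 1 gene became 7 with DESeq2, 84 with no filter, 11 with only the groups compared, 2 with Scrublet doublets removed and 5 with clusters, and 1 to 8 without single animals. For genotype in normal lung, 35 became 63 with DESeq2, 210 with no filter and 9 to 64 without single animals. For tumor in WT, 25 became 188 with no filter, 11 with only the groups compared, 38 with Scrublet doublets removed, 10 with stricter cell filters, 14 with clusters and 4 to 57 without single animals. For the interaction, 51 became 211 with no filter and 10 to 81 without single animals. The causes were not tested.

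Thinning lowered the shares with a UMI in WT tumor-bearing lung to 35.8% in interstitial macrophage-like, 12.5% in alveolar macrophage-like, 10.5% in natural killer cell-like, 7.41% in cDC2-like, 0.450% in alveolar type 2 cell-like and 0% in B cell-like cells. In normal lung it gave 23.7% in interstitial macrophage-like and 38.9% in non-classical monocyte-like cells. All filtered cells, with or without an animal, gave 60.3 CPM in alveolar macrophage-like and 3.40 CPM in alveolar type 2 cell-like cells of tumor-bearing lung. Without cells that carry macrophage markers, cDC2-like cells had 5.54 and 0 CPM, B cell-like cells of tumor-bearing lung 0 and alveolar type 2 cell-like cells 2.14 CPM. With rank correlation 5 of the 10 like genes remained. No paired analysis between libraries was possible because hashtag numbers do not pair animals across them. Depth limits types under about 30 cells, where a few UMIs set the level.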
